A study of Mus musculus with 3 samples.

Results

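Glycolysis splits glucose into pyruvate and yields ATP and NADH, lactate dehydrogenase or mitochondria then take up the pyruvate, and the pentose phosphate pathway branches off at glucose 6-phosphate to make NADPH and ribose 5-phosphate. In fat cells these routes supply glycerol 3-phosphate, acetyl groups and NADPH for triglyceride and fatty acid synthesis, and NADPH is also what cells draw on to reduce glutathione and thioredoxin when peroxide is present. The data here describe 40 genes for the enzymes of these routes, of 18194 genes named on the array. The 40 genes were chosen by their names, with earlier results of these data known. A gene was measured where at least 1 probe set, the group of short probes that reports a transcript, was annotated to that gene alone. This held for 36 of the 40, with 78 such probe sets. Gpi1 (glucose 6-phosphate isomerase), Eno1 (the widely expressed enolase), Pfkfb1 (the liver form of the fructose bisphosphate regulator) and G6pdx (the enzyme that opens the pentose phosphate pathway) were not measured.

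RNA came from 3T3-L1 cells, a mouse fibroblast line that can be turned into adipocytes in culture, after glucose oxidase, given for 2 h by the study's text, an enzyme that turns glucose and oxygen into hydrogen peroxide in the medium. All 3 samples form 1 group, named GO in their titles and insulin resistant adipose cells in their source labels, and untreated cells were not analysed here, so every value is a level after treatment and nothing below is a change. The tissue label says preadipocytes, whereas the growth protocol describes differentiated cells and the study's text calls the cells given glucose oxidase adipocytes. No source says whether each sample had a culture of its own, and the variation among arrays could therefore be technical alone.

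Levels are log2 of the RMA intensities that were deposited, for the probe set of highest mean of each gene. A gene was taken as above background where at least 1 probe set lay, in all 3 arrays, over a limit of 7.59 on the log2 scale. The limit is the 95th percentile of the values of 83 probe sets for sensory receptor genes (smell, pheromone and taste). Probe sets bind with different strength, so heights of different genes are not set against each other. The adipocyte markers were above background for 9 of 9 genes and the preadipocyte and fibroblast markers for 6 of 6. Of the markers of other cells, 1 of 5 macrophage, 1 of 4 endothelial, 1 of 5 skeletal muscle and 1 of 4 liver genes passed. Over all genes on the array the share above background was 54.2%. Marker genes were chosen after their values were seen, so these counts do not test which cells the cultures held. The arrays agreed closely, with Pearson's r across probe sets above background of at least 0.997 for each pair.

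Every step of glycolysis and of the pentose phosphate pathway that was measured had at least 1 transcript above background in the peroxide-treated cells. For enolase this was Eno3 alone, at 8.32 on its only probe set, 0.73 log2 units over the limit. Of the 36 measured genes 32 (88.9%) were above background, against 54.2% of all 18194 genes on the array. The genes that were not are Aldoc, Pgam2, Eno2 and Pfkfb2, known as brain, muscle, neuronal and heart forms of enzymes that other genes also encode. As RNA came from whole cultures, fewer cells of a type and less RNA per cell cannot be told apart. The count did not move with the limit. It was 32 of 36 at the 99th percentile (45.6% of all genes) and 32 of 36 at the 90th (57.4% of all genes). When the probe sets of each gene were reduced to their median, Hk3 and Pklr dropped out, which left 30 of 36 (43.6% of all genes). By probe sets, 61 of 78 (78.2%) were above background, against 45% of the 34958 probe sets with 1 gene.

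**Figure D1:**
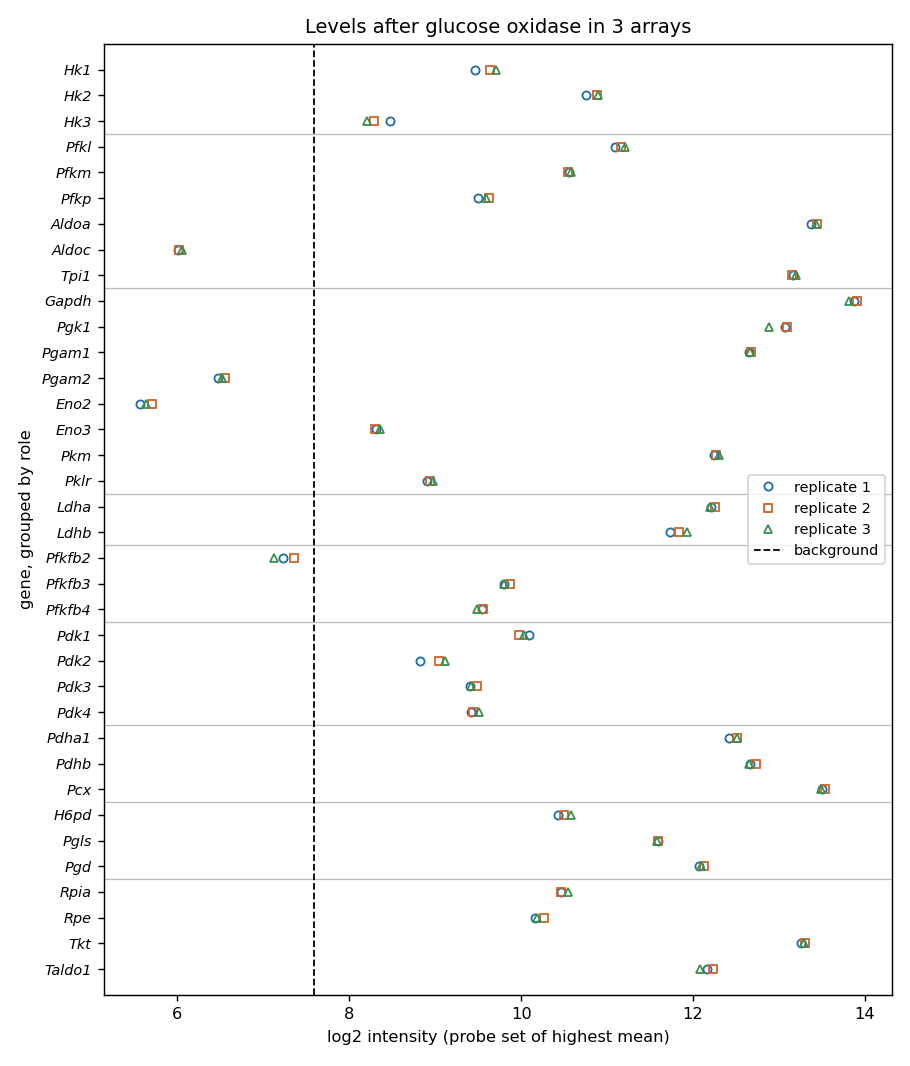
Log2 intensity (x axis) of the 36 measured genes (y axis), grouped by role, with 1 symbol per array and background (7.59) as a dashed line. Aldoc, Pgam2, Eno2 and Pfkfb2 lie left of the line in all 3 arrays and the other 32 genes lie right of it. Horizontal positions of different genes are not comparable.

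Several steps are served by isozymes from separate genes, and their promoters differ in CG dinucleotides, which are dense at many genes that all tissues use and sparse at many tissue-restricted ones. The 250 bases before the transcription start (RefSeq, GRCm38.p6, with CG in capitals) are shown for 2 genes each of the hexokinase and phosphoglycerate mutase steps, because each pair sets a gene of the general or insulin-responsive kind beside one known from other tissues.
Hk2, chr6:82774455-82774704, minus strand: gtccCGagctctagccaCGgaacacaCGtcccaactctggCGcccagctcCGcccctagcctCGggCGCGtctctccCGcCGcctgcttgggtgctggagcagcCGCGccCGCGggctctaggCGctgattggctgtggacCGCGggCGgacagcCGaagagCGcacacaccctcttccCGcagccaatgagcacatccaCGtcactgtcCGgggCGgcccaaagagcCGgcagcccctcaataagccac
Hk3, chr13:55021386-55021635, minus strand: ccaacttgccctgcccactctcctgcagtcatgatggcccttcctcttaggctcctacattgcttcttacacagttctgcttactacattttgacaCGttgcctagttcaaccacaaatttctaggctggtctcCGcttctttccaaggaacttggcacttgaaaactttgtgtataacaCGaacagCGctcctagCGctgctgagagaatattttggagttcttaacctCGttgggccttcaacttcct
Pgam1, chr19:41911621-41911870, plus strand: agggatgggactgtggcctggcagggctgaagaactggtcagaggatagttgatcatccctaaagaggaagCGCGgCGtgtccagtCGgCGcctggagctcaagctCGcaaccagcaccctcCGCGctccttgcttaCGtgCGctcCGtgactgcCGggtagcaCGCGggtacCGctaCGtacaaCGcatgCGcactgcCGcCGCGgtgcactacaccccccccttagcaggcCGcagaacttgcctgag
Pgam2, chr11:5803797-5804046, minus strand: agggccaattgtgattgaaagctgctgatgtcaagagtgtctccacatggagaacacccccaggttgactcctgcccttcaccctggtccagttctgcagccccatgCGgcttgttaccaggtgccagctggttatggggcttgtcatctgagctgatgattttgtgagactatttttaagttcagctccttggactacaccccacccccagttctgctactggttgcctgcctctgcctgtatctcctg
The Hk2 stretch holds 25 CG and that of Hk3 6, and the Pgam1 stretch holds 22 and that of Pgam2 1. Hk1, the hexokinase of most tissues, did not follow the pattern, with 14 and 1 CG at its 2 starts, a mean of 7.5. CG reads the same on both strands and was the only motif searched. Over all 36 measured genes, each with its starts averaged, the median was 13.7 CG for the 32 above background and 5.17 for the 4 that were not, against 16.5 for all genes above background and 6 for the 27025 genes of the promoter table. At least 10 CG, a limit set after the values were seen, were found for 24 of the 32 (75%) and 0 of the 4, against 38.5% of the promoter table. Among all genes above background with a promoter in the table, which were 81.3% of them, the share was 78.3%, close to that of the 32 enzyme genes. The same share for all genes not above background is void, since only 77.2% of them had a promoter in the table. The 8 genes above background with fewer than 10 CG were Hk1, Hk3, Pfkm, Gapdh, Eno3, Pklr, Pdk4 and H6pd. Gapdh, with 8 CG, Pfkm, with a mean of 5.25, and H6pd, with 3 CG, were 6.27, 2.98 and 2.91 log2 units above background. Hk1 was 2.02 log2 units above it, and the others were 0.73 to 1.87 above it.

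**Figure D2:**
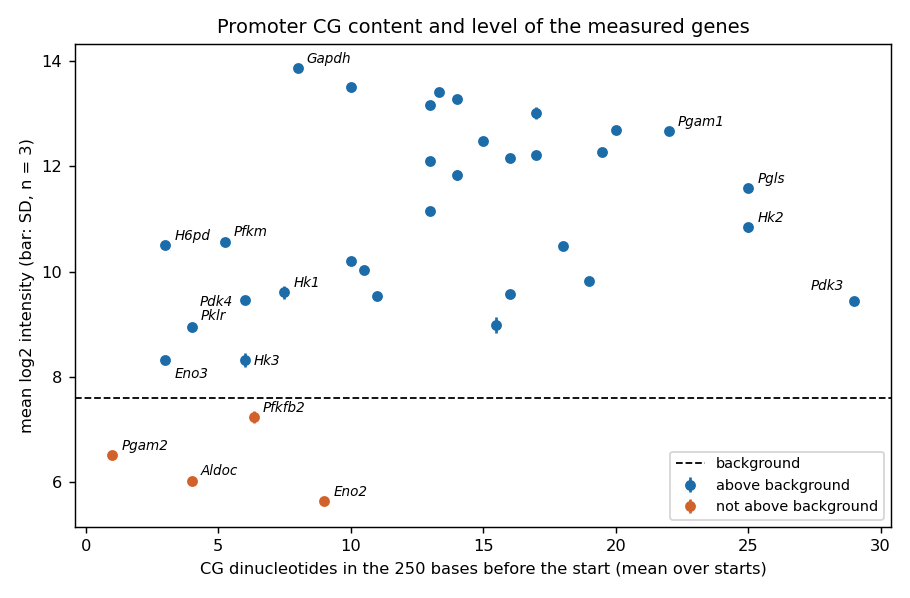
Number of CG dinucleotides in the 250 bases before the start (x axis, mean over the starts of a gene) and mean log2 intensity (y axis, bars SD, n = 3) of the 36 measured genes, blue above and orange not above background (dashed line, 7.59). The 4 orange genes lie between 1 and 9 CG, and blue genes span 3 to 29 CG. Heights of different genes are not comparable.

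Hexokinases trap glucose in the cell as glucose 6-phosphate. Hk2, the form that insulin raises in fat and muscle, was at a log2 intensity of 10.75, 10.89 and 10.90 in replicates 1, 2 and 3. Hk1, the form of most tissues, was at 9.46, 9.64 and 9.71 in the same order, so replicate 1 was lowest for both. The other Hk1 probe set, at 7.93 ± 0.08 (SD, n = 3), was also lowest in replicate 1 and highest in replicate 3. Hk3, known from white blood cells, ran the other way, at 8.48, 8.28 and 8.21. It passed background on 1 of its 2 probe sets, as the other was at 6.08 ± 0.04 (SD, n = 3). Of the 5 macrophage markers only the receptor gene Csf1r passed, at 8.70 ± 0.10 (SD, n = 3), the list ran from 4.64 to 8.70, and Ptprc, which marks blood cells in general, was at 4.64 ± 0.15 (SD, n = 3). The part of such cells in the Hk3 signal was not tested.

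Phosphofructokinase commits sugar to glycolysis, and its liver, muscle and platelet subunits were all above background. Pfkl was at a log2 intensity of 11.10, 11.16 and 11.21 in replicates 1, 2 and 3, Pfkm at 10.56, 10.55 and 10.58, and Pfkp at 9.50, 9.62 and 9.59. The range between arrays was thus 0.11 for Pfkl, 0.03 for Pfkm and 0.12 for Pfkp. Pfkl and Pfkp each had 3 probe sets, of which 2 were above background. Aldolase then splits the sugar. Aldoa, its general and muscle form, was at 13.37, 13.45 and 13.43 and its 5 probe sets were all above background, at means of 11.47 to 13.42. All 5 end in x, the array maker's mark for probes that may bind related transcripts. Aldoc, the brain form, was at 6.03 ± 0.03 (SD, n = 3), and both of its probe sets were below background in every array. Tpi1, which interconverts the triose phosphates, was at 13.17 ± 0.02 (SD, n = 3).

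The lower part of the pathway yields ATP, and its general forms that were measured (Eno1 was not) were well above background. Gapdh carries a reactive cysteine that hydrogen peroxide is known to oxidise in the protein. Its transcript was at 13.87, 13.91 and 13.81 in replicates 1, 2 and 3, on control probe sets of the array maker, since 3 further probe sets are shared with Gapdh pseudogenes. Pgk1, phosphoglycerate kinase, was at 13.07, 13.10 and 12.88, lower in replicate 3 than in the other arrays. The other probe sets of Pgk1 were also lowest in replicate 3, at 12.66 against 12.70 and 12.78 and at 10.71 against 10.84 and 10.87 in replicates 1 and 2.

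For the mutase whose promoters are shown above, Pgam1 was at a log2 intensity of 12.65, 12.67 and 12.67, and Pgam2, the muscle form, was at 6.47, 6.55 and 6.51, below background in every array. Of the enolases, Eno2, the neuronal form, was at 5.57, 5.70 and 5.63, and Eno3, the muscle form, was at 8.32, 8.30 and 8.35. Eno3 was thus within 1 log2 unit of background, as was Hk3, and these were the only such genes among the 32. Of the 5 skeletal muscle markers, at means of 5.17 to 8.25, only the creatine kinase gene Ckm passed, at 8.25 ± 0.04 (SD, n = 3), and the myosin gene Myh4 was at 5.17 ± 0.08 (SD, n = 3). The part of muscle-like transcription in the Eno3 signal was not tested.

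Pyruvate kinase makes pyruvate and ATP. Pkm, the gene of fat, muscle and dividing cells, was at 12.25, 12.27 and 12.30 in replicates 1, 2 and 3, from 1 probe set, so its splice forms were not separated. Pklr, the liver and red cell gene, was at 8.91, 8.94 and 8.97 on 1 probe set, whereas its other probe sets were at 7.21 ± 0.07 and 6.56 ± 0.09 (SD, n = 3), both below background. Of the 4 liver markers, at means of 5.14 to 8.49, only the transthyretin gene Ttr passed, at 8.49 ± 0.01 (SD, n = 3), and the albumin gene Alb was at 6.61 ± 0.12 (SD, n = 3). Whether liver-type transcription contributed to the Pklr signal was not tested. Lactate dehydrogenase turns pyruvate into lactate and back. Ldha was at 12.21, 12.26 and 12.20, and Ldhb at 11.73, 11.84 and 11.93. The SD of that Ldhb probe set was 0.10, whereas the 3 others had SDs of 0.02, 0.02 and 0.04 between arrays.

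Fructose 2,6-bisphosphate activates phosphofructokinase, and the PFKFB enzymes make and remove it. Pfkfb3, the inducible form that favours its synthesis, was at a log2 intensity of 9.81, 9.87 and 9.80 in replicates 1, 2 and 3 on 1 probe set, and its other probe set was below background at 6.85 ± 0.03 (SD, n = 3). Pfkfb4, first known from testis, was at 9.55, 9.55 and 9.49. Pfkfb2, the heart form, was at 7.23, 7.35 and 7.13, with all 4 probe sets below background. It was the gene nearest to background among those that did not pass, at a difference of -0.35 log2 units from it.

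Pyruvate dehydrogenase carries pyruvate into the mitochondrial acetyl-CoA pool, and the PDK kinases switch it off. All 4 kinases were above background, where 54.2% of all genes on the array were. Pdk1 was at 10.09, 9.98 and 10.03 in replicates 1, 2 and 3, Pdk3 at 9.41, 9.49 and 9.42, and Pdk4, which fasting raises in many tissues, at 9.41, 9.44 and 9.51. Pdk2 was at 8.82, 9.04 and 9.11, a range of 0.29 that was the largest of the 32 genes, with replicate 1 apart from the others. Of 4 probe sets for Pdk1, 3 were above background and the fourth was at 5.70 ± 0.14 (SD, n = 3). The enzyme's own E1 subunits, Pdha1 and Pdhb, were at 12.48 ± 0.06 and 12.68 ± 0.04 (SD, n = 3). The second Pdhb probe set was at 8.48 ± 0.11 (SD, n = 3), above background but 4.21 log2 units under the first.

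Pcx encodes pyruvate carboxylase, which makes oxaloacetate and is known for high activity in fat cells that build fatty acids. It was at a log2 intensity of 13.50, 13.54 and 13.49 in replicates 1, 2 and 3. The array also carries control probe sets at the 5′ end, the middle and the 3′ end of Pcx and Gapdh, the usual check of RNA and labelling. The 3′ signal of Pcx was 5.34, 5.01 and 5.47 times its 5′ signal in replicates 1, 2 and 3, and that of Gapdh 1.11, 1.14 and 1.10 times. Replicate 2 thus had the smallest ratio for Pcx and the largest for Gapdh. The Pcx controls were at 10.64 ± 0.10 at the 5′ end, at 11.38 ± 0.09 and 12.08 ± 0.09 in the middle and at 13.04 ± 0.04 at the 3′ end (SD, n = 3), so the level of Pcx differed with the probe set.

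**Figure D3:**
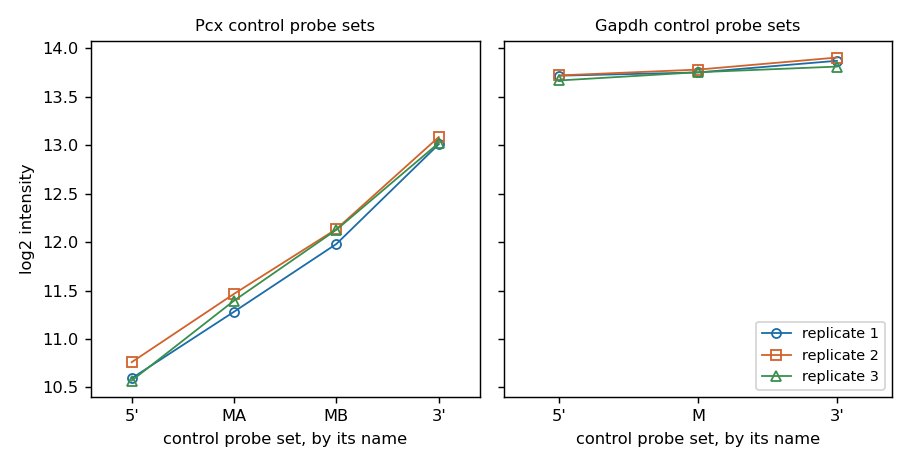
Log2 intensity (y axis) of the control probe sets of Pcx (left) and Gapdh (right) by name (x axis), with 1 symbol and line per array. The Pcx signal is at 10.64 on the 5′ and 13.04 on the 3′ probe set, and that of Gapdh at 13.70 and 13.86.

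The pentose phosphate genes that were measured were all above background, 3 of 3 in the oxidative and 4 of 4 in the non-oxidative branch. Of all genes on the array 54.2% were, so counts this small say little. In the oxidative branch, which makes NADPH, Pgls, the lactonase, was at a log2 intensity of 11.59, 11.59 and 11.58 in replicates 1, 2 and 3, the smallest spread of the 32 genes. Pgd, whose enzyme yields NADPH and ribulose 5-phosphate, was at 12.07, 12.13 and 12.10. Its 4 probe sets were all above background, and the one not marked with x was at 11.25, 11.42 and 11.45, with replicate 1 lowest on all 4. H6pd, which does the opening steps inside the endoplasmic reticulum, was at 10.43, 10.49 and 10.58.

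In the non-oxidative branch, which returns pentoses to glycolysis, Rpia and Rpe, the isomerase and epimerase of ribulose 5-phosphate, were at 10.49 ± 0.05 and 10.21 ± 0.06 (SD, n = 3). Tkt, transketolase, was at 13.26, 13.30 and 13.30 in replicates 1, 2 and 3 on a probe set marked with x, and at 12.14 ± 0.08 (SD, n = 3) on the next, which is not. Taldo1, transaldolase, was at 12.16, 12.24 and 12.08. Probe sets of 1 gene differed widely for Rpe and Tkt. The lowest Rpe probe set was at 3.91 ± 0.04 and the lowest Tkt probe set at 7.46 ± 0.12 (SD, n = 3), 6.30 and 5.82 log2 units under the highest of the same gene.

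Across the measured genes 20 had several probe sets. Of these, 16 had means more than 1 log2 unit apart, and the median distance was 2.31 log2 units, with 0.16 for Gapdh at the low end. All probe sets were above background in 10 of the 20, and 8 genes had probe sets on both sides of the limit, namely Hk3, Pfkl, Pfkp, Pklr, Pfkfb3, Pdk1, Rpe and Tkt. In contrast, Gapdh, Tpi1 and Ldhb had all probe sets within 0.59 log2 units. Other genes on the array were not counted in this way, so whether such distances are usual for it is not known.

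**Figure D4:**
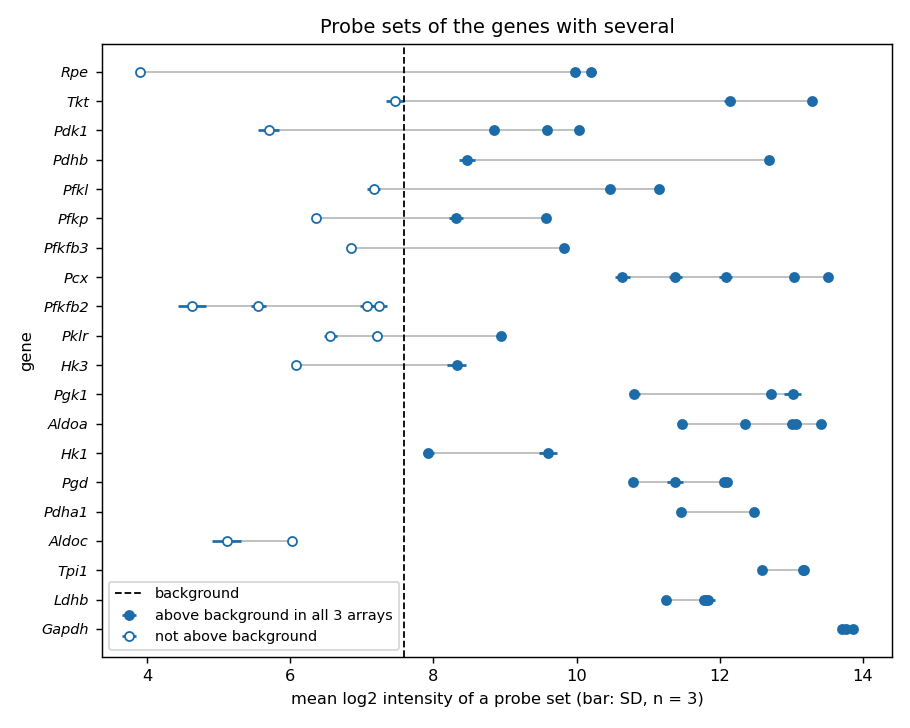
Mean log2 intensity (x axis, bars SD, n = 3) of each probe set of the 20 genes with several (y axis), ordered by the distance between their highest and lowest means, filled where above background (dashed line, 7.59) in all 3 arrays. The distance runs from 0.16 for Gapdh to 6.30 for Rpe.

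The arrays differed little over these genes. The median SD between arrays was 0.045 for the 32 enzyme genes above background, against 0.048 for all 9868 genes above background. An SD over 0.1 was found for 5 of the 32 (15.6%), against 8.43% of all genes above background. These were Pdk2 (0.15), Hk3 (0.14), Hk1 (0.13), Pgk1 (0.12) and Ldhb (0.10). The SDs are those of the probe set of highest mean, and the other probe sets of Hk3, Hk1, Pgk1 and Ldhb had SDs under 0.1. Conversely, Pdhb, Pgd and Pcx had a lower probe set above background with an SD of 0.11, 0.11 and 0.10. Replicate 1 held the lowest value for 18 of the 32 (56.2%), against 44.8% of all genes above background, and the highest for 3 (9.38%), against 23.6% of all. In replicate 2, 26 of the 32 (81.2%) were higher than in replicate 1, against 61.9% of all genes above background, by a median of 0.04 log2 units, against a median of 0.02 over all genes. In replicate 3, 21 of the 32 (65.6%) were higher than in replicate 1, against 59.2% of all, by a median of 0.03, again with 0.02 over all genes.

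**Figure D5:**
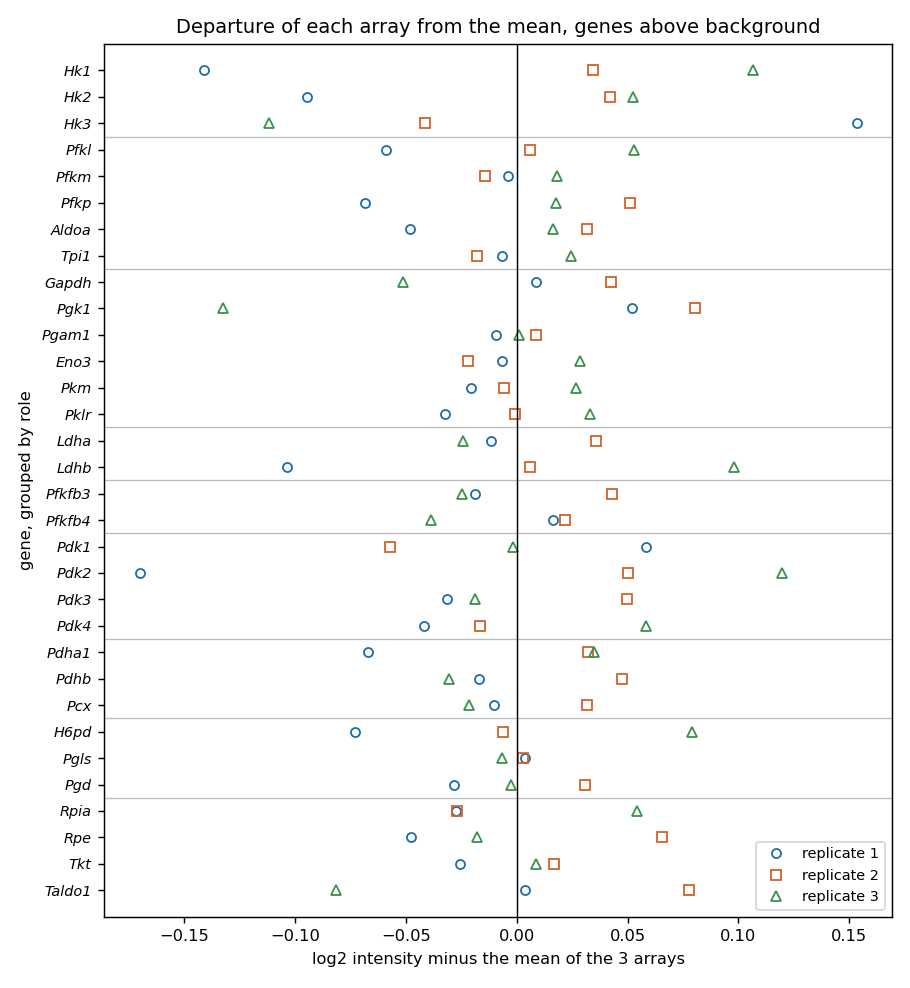
Log2 intensity of each array minus the mean of the 3 arrays (x axis) for the 32 genes above background (y axis), grouped by role, with 1 symbol per array. Replicate 1 is lowest for 18 genes, among them Hk1, Hk2 and Pdk2, and Hk3 runs the other way.

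Where several probe sets of a gene were above background, they could be set against each other as further readings of the same samples. Of 15 such genes, 8 had the same array highest on all of them and 8 the same array lowest. Hk1, Pfkl, Pfkp, Pgk1 and Tkt agreed on both. Pdk1, Ldhb, Rpe and Tpi1 agreed on neither. The same counts were not made over all genes, so whether such agreement is usual for these arrays is not known.

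The neighbouring routes were described in the same way from 65 further genes, of which 57 were measured and 42 were above background, where 54.2% of all genes on the array were. The other genes of pyruvate dehydrogenase were above background for 6 of 6, among them Dld at 12.16 ± 0.03, Dlat at 11.24 ± 0.04 and the phosphatase regulator Pdpr at 10.42 ± 0.05 (SD, n = 3). Of 5 pyruvate and lactate carrier genes 3 were, namely the mitochondrial carrier gene Mpc1 at 12.71 ± 0.01, Bsg, a chaperone of lactate carriers, at 12.38 ± 0.05 and Slc16a1 at 9.82 ± 0.02 (SD, n = 3). The lactate exporter gene Slc16a3 was at 5.85 ± 0.05 and Slc16a7 at 3.59 ± 0.02 (SD, n = 3), both below background on their only probe set.

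Of 6 gluconeogenesis genes 3 passed, a share near that of all genes, namely Pck2 at 10.43 ± 0.02, Pck1, which in fat cells makes glycerol 3-phosphate, at 9.87 ± 0.11 and G6pc3 at 9.11 ± 0.07 (SD, n = 3). Fbp1, Fbp2 and the liver glucose 6-phosphatase gene G6pc did not. The glycerol 3-phosphate branch, which feeds triglyceride synthesis, passed for 3 of 3, with Gpd1 at 13.62 ± 0.03, Gpd2 at 11.11 ± 0.06 and Gpd1l at 10.27 ± 0.01 (SD, n = 3). Of 9 glycogen and glucose 1-phosphate genes 6 passed, among them Gyg at 12.26 ± 0.02, Pygb at 12.10 ± 0.04 and Ugp2 at 11.89 ± 0.02 (SD, n = 3). The liver and muscle phosphorylase genes Pygl and Pygm and Pgm2 did not. Of all genes on the array 54.2% were above background, so counts from lists this small say little.

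Of 8 genes listed as other possible sources of NADPH, 7 were above background. Among them were the isocitrate dehydrogenase gene Idh1 at 13.03 ± 0.02 and the malic enzyme gene Me1 at 11.89 ± 0.08 (SD, n = 3). Which cofactor each listed enzyme uses was not examined. Me3, a mitochondrial malic enzyme gene, was at 6.38 ± 0.12 (SD, n = 3). The 4 measured genes of other sugar entry points, among them Mpi, Khk and Adpgk, were all above background, at means of 8.22 to 9.11. The 9 regulators of glycolytic genes were all above background, with the hypoxia factor Hif1a at 11.66 ± 0.03 (SD, n = 3). For its oxygen sensor and its ligase, Egln1 was at 10.29 ± 0.05 and Vhl at 10.29 ± 0.04 (SD, n = 3). These counts too stand beside 54.2% of all genes on the array.

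Testis paralogues of the enzymes were set against the same limit, which 54.2% of all genes on the array passed. Of 7, 6 were not above background, among them Pgk2 at 4.18 ± 0.19, Ldhc at 6.28 ± 0.07 and Pdha2 at 4.63 ± 0.10 (SD, n = 3), and likewise Tktl1, Tktl2 and Ldhal6b. The sperm form Gapdhs was above it, at 8.45 ± 0.01 (SD, n = 3). Whether its signal, or that of Hk3 and Eno3 near the limit, came from the named transcript was not tested.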

How the data were processed

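Labelled cRNA from 3 samples was hybridised to the Affymetrix mouse4302 array, 45101 probe sets each. The authors corrected the background and normalized with RMA in affyPLM (version not given in the sources used here) and deposited intensity values on a linear scale, with medians of 126.9 to 127.6. Log2 was taken of them as deposited, since RMA usually gives log2 values. The arrays normalized together and any later scaling are unknown. RMA equalises arrays, so a shift of all genes would not be seen. The number of arrays limits the precision.

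Of the probe sets, 34958 were annotated to 1 gene, 932 to several and 9211 to none. By Entrez identifier 34754 matched RefSeq GRCm38.p6, and 0 symbols changed. No test was made, as there is 1 group. The members and lists were chosen with earlier results of these data known. All 40 genes are named. Genes of the neighbouring routes are named where not above background, or up to 3 a list by level. Marker genes are named only beside a result they touch and were chosen after their values were seen. Promoters came from RefSeq and were matched by symbol for all 36 measured genes. Protein sequences were not used here, so the planned identities between isozymes were not computed. The background call was tested only on simulated probe sets placed far above or far below the limit. Calls near it, as for Hk3, Eno3 and Pfkfb2, were not checked in this way. The SD was also tested on simulated data. Alternatives were other percentiles and background genes, the mean over arrays for the call, the median of probe sets, leaving out probe sets that may cross-hybridise or the array maker's controls, centring, averaging linear values and leaving out each replicate. Python 3.11.15, pandas 2.3.3, numpy 2.4.6 and matplotlib 3.10.9 were used.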

Additional observations from a re-analysis of the deposited data

How the results depend on the processing

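No paired analysis was possible because all arrays belong to a single group with nothing to pair against. The enzyme genes above background were 32 of 36 at both other percentiles, with other background genes, on the mean over arrays, on centring and without each replicate, and in each case Aldoc, Pgam2, Eno2 and Pfkfb2 were those that did not pass. Taking the median over probe sets left 30 of 36, as Hk3 and Pklr no longer passed. Omitting probe sets that may cross-hybridise left 31 of 35, as Aldoa then had none. They were also 31 of 35 without the control probe sets, a setting chosen after seeing the data, where Gapdh had none left. The counts of the 9 lists of neighbouring genes stayed within 1.5 times their value. The median SD, 0.045, was 0.052 without probe sets that may cross-hybridise and 0.038 to 0.042 without each replicate in turn. In the latter case each SD rests on 2 values. The median differences between arrays kept their sign under each alternative. Of 36 levels, 16 rest on 1 probe set and cannot move with the median of probe sets. Of the other 20, 19 moved by over 1 SD and 11 by over 1.5-fold, up to 4.30-fold. Of 35 levels, 3 and 2 did without probe sets that may cross-hybridise, the 2 being Pgd at 11.37 and Tkt at 12.14. Leaving out 1 array of 3 cannot move a mean by over 1 SD. All moves over 1 SD were downward, as the levels are those of the probe set of highest mean. Why probe sets of 1 gene differ was not tested. Signal near background limits Hk3, Eno3 and Pfkfb2, which lie within 1 log2 unit of it.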

Other observations

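Probe sets annotated to several genes were left out of the levels, and 4 of them name an enzyme gene. One names Hk1 together with Rpl17 and 4 further genes or pseudogenes and was at 13.15, 13.08 and 13.04 in replicates 1, 2 and 3. It was highest in replicate 1, where the Hk1 probe sets with 1 gene were lowest. The other 3 name Gapdh with its pseudogenes and were at 14.22 ± 0.03, 10.39 ± 0.06 and 8.80 ± 0.09 (SD, n = 3), all above background. All 3 were lowest in replicate 3, as were the 5′ and 3′ control probe sets of Gapdh.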
